A study of Oryctolagus cuniculus with 9 samples.

Results

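Solute carriers are membrane proteins that move sugars, amino acids, nucleotides, vitamins, metals and inorganic ions across the plasma membrane and the membranes of organelles. Genes were taken as members when their symbol began with SLC followed directly by a digit and their mean level over all 9 libraries reached 5 CPM, the standard unit of a gene's counts scaled to the library's total count. Of 300 SLC rows among 19291 genes, 137 met this rule, from 39 of the 49 solute carrier subfamilies in the table. Of the 19291 genes, 13318 are named by a symbol and the rest by an identifier alone. A carrier without a symbol could not become a member, so the members may not be the full set of carriers. Members were thus chosen by their mean level and not by a difference between groups, so the levels below are a description and the differences were tested. Just above the minimum were SLC25A29 at 5.17, SLC6A4 at 5.30, SLC3A1 at 5.31 and SLC26A2 at 5.39 CPM. Just below it were SLC25A14 and SLC40A1, each at 4.56, SLC35A5 at 4.45 and SLC25A15 at 4.38 CPM. All 137 members also passed the filter on low counts that preceded the tests. The symbol rule brought in 2 members that are not transporters: SLC7A6OS, a neighbour of SLC7A6 on the opposite strand, and SLC9A3R1, a scaffold protein that binds ion exchangers. The other 135 belong to transporter families.

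The libraries came from HA-VSMC cells, a line whose organism is given as rabbit and whose name the labels do not spell out. The same name is in use for a human aortic smooth muscle line, and the species was not checked here, since reads were not used. A kit for small RNA is named for the libraries of mRNA. What either means for the levels, or for markers at 0, was not tested. Control cells, cells given 50 nM β-estradiol and cells given 250 nM β-estradiol made up 3 groups of 3 libraries each. Estradiol was dissolved in DMSO with sodium hydrogen carbonate, and the harvest followed 48 h of incubation. The labels do not say whether controls received the solvent, their treatment tag reads "estrogen" with the concentration "WT", and the treatment text names the 250 nM concentration alone. All cells grew in RPMI medium with fetal bovine serum, which itself carries hormones and nutrients.

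Most carriers of this superfamily work without ATP, either letting a solute run down its gradient or coupling it to sodium, protons or another solute. In vascular smooth muscle they are known for glucose uptake, for setting chloride and cell volume through cation-chloride cotransport, for regulating pH, and for importing phosphate. The SLC25 family sits mainly in the inner mitochondrial membrane and exchanges nucleotides, phosphate and metabolites between matrix and cytosol.

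The libraries held 54718407 to 72274464 deposited count units, about 4 of which stand for 1 fragment, so that depth was about 13679602 to 18068616 fragments. The members took 0.693% to 0.752% of the counts of a library. Of 10 smooth muscle markers 8 were in the table. Over the 9 libraries 5 of these exceeded a mean of 1 FPKM (fragment counts scaled for gene length and depth), led by ACTA2 and TPM2. In control cells MYH11 was low at 4.65 FPKM, and LMOD1 and MYLK were lower still at 0.451 and 0.414 FPKM. DES was at 0 in every library. None of the 7 endothelial, 5 epithelial and 3 leukocyte markers in the table had a mean above 1 FPKM, although the endothelial marker EMCN reached 1.20 FPKM in control library 3 and 1.15 FPKM in 50 nM library 3. KDR, EPCAM and ESRP1 were at 0 in every library. Of 7 fibroblast markers 6 exceeded a mean of 1 FPKM. The labels name no separate cultures for the libraries of a group. The spread behind each p-value is the spread between these libraries and may be technical. In bulk RNA, fewer cells of a kind and less RNA per cell cannot be told apart.

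Members were compared with each other in FPKM, which corrects for gene length, and sorted by the usual substrate of their subfamily. Values are means ± SD over 3 libraries. Carriers of the SLC25 family were the largest class in control cells: 24 members summed to 784 ± 58.7 FPKM, or 30.0% of the summed member level. Amino acid carriers followed with 25 members and 594 ± 14.5 FPKM (22.7%). The 21 metal carriers summed to 440 ± 12.8 FPKM (16.8%), and the 22 carriers of inorganic ions and pH equivalents to 262 ± 10.6 FPKM (10.0%). The 13 carriers of nucleosides and nucleotide sugars came to 178 ± 10.7 FPKM, the 9 of sugars and sodium-coupled organic solutes to 108 ± 6.46 FPKM, and the 7 of lipids, choline and bile acids to 104 ± 3.33 FPKM. Smaller sums belonged to 3 monocarboxylate carriers at 62.5 ± 2.69 FPKM, 7 carriers of organic ions or vesicular transmitters at 39.1 ± 1.58 FPKM and 4 vitamin carriers at 15.8 ± 0.69 FPKM. The level was concentrated in few genes: the 20 highest members held 58.2% of the summed FPKM. In control cells 14 members exceeded 50 FPKM, 56 exceeded 10 FPKM and none was under 1 FPKM.

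**Figure D1:**
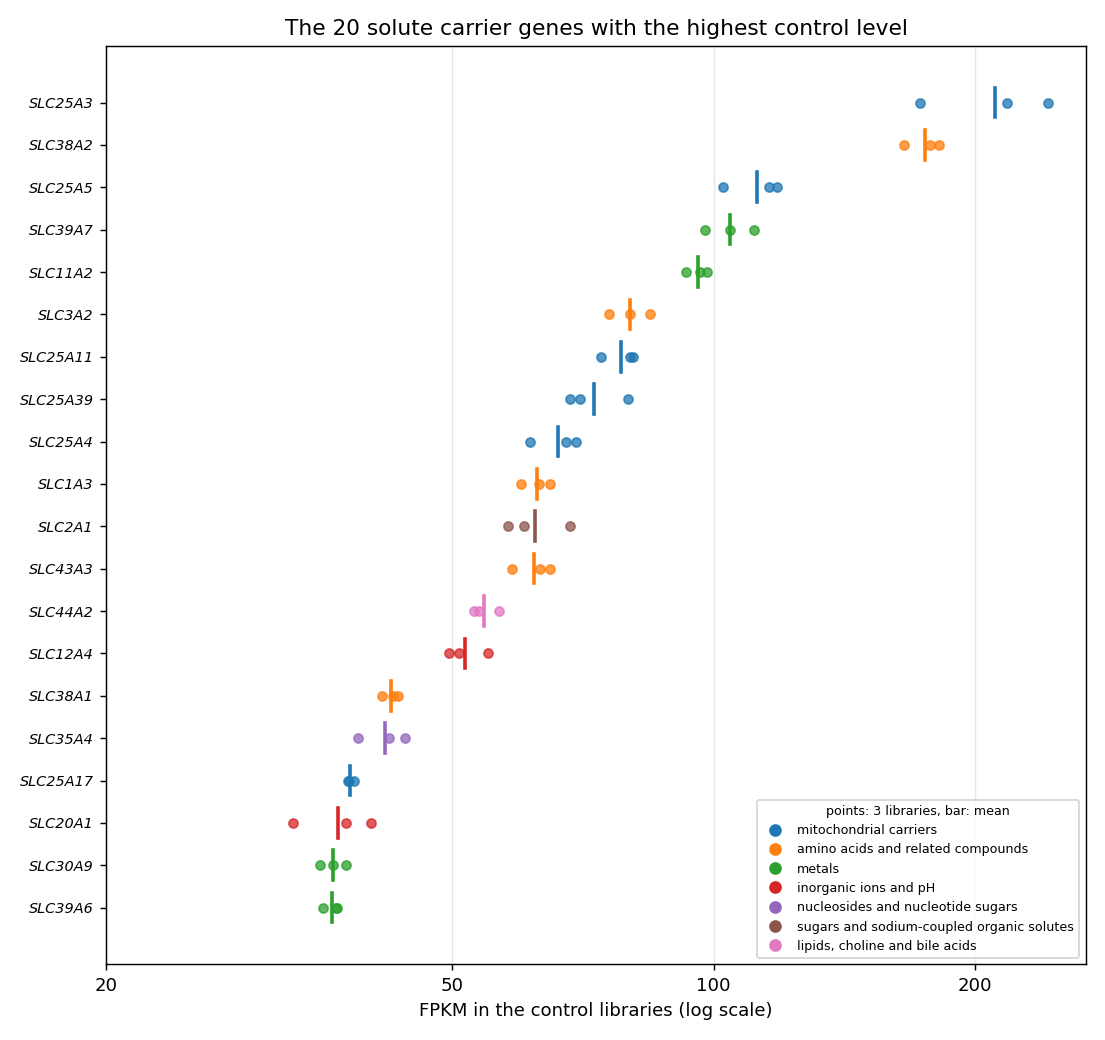
FPKM of the 20 highest solute carrier members in control cells, on a log axis, coloured by transport class. Points are the 3 control libraries and bars their mean; SLC25A3 at 211 FPKM and SLC38A2 at 175 FPKM overlap with each other and stand apart from the rest, which run down to SLC39A6 at 36.4 FPKM.

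The phosphate carrier SLC25A3, which supplies the matrix with phosphate for ATP synthesis, was the highest member and alone held 8.04% of the summed level. Its 3 control libraries read 242.4, 172.8 and 217.8 FPKM, the 50 nM libraries 218.3, 184.3 and 222.5 FPKM, and the 250 nM libraries 208.8, 183.3 and 211.4 FPKM. The groups overlapped, and the library numbered 2 was the lowest of its group each time. The same held for the sum over the SLC25 family, which was 719.8 FPKM in control library 2 against 799.1 and 834.4 FPKM in the other two. After SLC25A3 came SLC25A5 at 112 ± 8.45 FPKM and SLC25A4 at 66.2 ± 4.23 FPKM, the exchangers of ADP and ATP. These 2 genes are close copies, between which the counting may have divided reads. SLC25A11, which exchanges oxoglutarate for malate, stood at 78.3 ± 3.66 FPKM. SLC25A39, linked to mitochondrial glutathione import, was at 72.8 ± 6.09 FPKM, and the peroxisomal carrier SLC25A17 at 38.2 ± 0.359 FPKM. The remaining 18 SLC25 members lay between 3.20 FPKM for SLC25A30 and 31.4 FPKM for the citrate carrier SLC25A1.

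Among amino acid carriers, SLC38A2 (SNAT2), the sodium-coupled importer of small neutral amino acids, was the highest. Its control libraries read 181.9, 165.5 and 177.5 FPKM, and this range overlapped that of SLC25A3, so the order of the 2 highest members was not beyond their spread. SLC3A2, the heavy chain that carries SLC7 transporters to the plasma membrane, followed at 80.2 ± 4.27 FPKM. Its light chain partners were lower: SLC7A11, the cystine importer, at 33.4 ± 1.63 FPKM and SLC7A5, the importer of large neutral amino acids, at 19.5 ± 1.40 FPKM. SLC1A3, a glutamate importer, stood at 62.7 ± 2.42 FPKM and SLC43A3 at 62.2 ± 3.15 FPKM, levels that did not differ beyond their spread. SLC43A3 was placed here with its subfamily, although it is known as a carrier of purine bases. SLC38A1, a further sodium-coupled importer, was at 42.5 ± 0.896 FPKM. SLC6A17 led its subfamily at 8.83 ± 0.194 FPKM, and the other members of the class went down to 1.54 FPKM for SLC3A1, the heavy chain of the renal cystine carrier.

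Metal carriers were led by SLC39A7 (ZIP7), which releases zinc from the endoplasmic reticulum, at 105 ± 6.72 FPKM, and by SLC11A2 (DMT1), the proton-coupled importer of ferrous iron, at 95.9 ± 2.66 FPKM. The control range of SLC39A7 (97.8 to 111.2 FPKM) overlapped that of SLC25A5 above it (102.6 to 118.4 FPKM) and that of SLC11A2 below it (93.0 to 98.2 FPKM), while SLC25A5 and SLC11A2 did not overlap. SLC30A9 at 36.5 ± 1.23 FPKM was the highest of the SLC30 zinc family, and SLC39A6, a zinc importer of the plasma membrane, stood at 36.4 ± 0.724 FPKM. SLC41A1, a magnesium carrier, reached 16.0 ± 0.235 FPKM. The heme carrier SLC48A1 varied most among the named metal carriers, at 13.1 ± 4.35 FPKM.

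Among carriers of inorganic ions, SLC12A4 (KCC1), which extrudes potassium with chloride, was the highest at 51.8 ± 2.80 FPKM. The sodium-phosphate importer SLC20A1 (PiT1) was at 37.0 ± 3.83 FPKM and SLC20A2 (PiT2) at 22.4 ± 0.351 FPKM. SLC4A7, a sodium bicarbonate cotransporter, led the SLC4 subfamily at 12.5 ± 0.18 FPKM, and SLC26A11 led SLC26 at 8.91 ± 0.77 FPKM. The lowest of this class were SLC12A5 at 1.55 FPKM and SLC26A2, a sulfate carrier, at 1.56 FPKM.

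Among the SLC2 members, SLC2A1 (GLUT1) was the highest at 62.3 ± 5.35 FPKM, ahead of SLC2A10 at 16.9 ± 0.561 FPKM and SLC2A8 at 4.31 ± 0.431 FPKM. SLC2A3 (GLUT3) had no row under that symbol, so its level is not known here. SLC35A4, a Golgi protein of the nucleotide sugar family, was at 41.8 ± 2.60 FPKM, and the nucleoside carrier SLC29A1 (ENT1) at 21.3 ± 2.14 FPKM. SLC44A2, a choline transporter-like protein, stood at 54.4 ± 1.97 FPKM and SLC27A4, a fatty acid transport protein, at 28.4 ± 1.07 FPKM. The lactate exporter SLC16A3 (MCT4) was at 23.6 ± 0.908 FPKM. SLC22A5 (OCTN2), the carnitine importer, led its subfamily at 6.01 ± 0.527 FPKM. The highest vitamin carrier was SLC23A2 (SVCT2), which takes up ascorbate, at 7.74 ± 0.336 FPKM. SLC5A6, at 5.79 FPKM, was counted with its subfamily among sugar carriers in all class values, although it is known as a multivitamin carrier.

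With 50 nM estradiol, 5 of the 137 members rose and none fell at an adjusted p under 0.05 (edgeR quasi-likelihood test, Benjamini-Hochberg over 12324 genes). They were the zinc exporter SLC30A1, the ascorbate carrier SLC23A2, the vesicular nucleotide carrier SLC17A9, the potassium-chloride cotransporter SLC12A4 and the anion exchanger SLC26A6, and the fitted rises were 1.18-fold to 1.47-fold. They make up 3.65% of the members, and 3.25% of all genes tested were called in this comparison (1.55% higher, 1.70% lower), so the share of members called was near that of all genes. Their substrates differ, and they come from 5 subfamilies. The count depended on single libraries: it was 2 without control library 2 or 3, 1 without 50 nM library 1 or 2, and 3 without any one of the 250 nM libraries. The gene left without 50 nM library 2 was SLC35B3, outside the 5, and without control library 1 the count of 5 included a fall of SLC39A10, a zinc importer. The summed level of fibroblast markers moved in the same libraries, mainly through COL1A1 and COL1A2. It was 4652 to 4918 FPKM in control, 5176 to 5391 FPKM at 50 nM and 5250 to 5453 FPKM at 250 nM. The other fibroblast markers, PDGFRA, DCN, LUM, FAP and THY1, each overlapped with control in CPM at both concentrations. Summed smooth muscle markers overlapped, at 2705 to 2866, 2626 to 2800 and 2687 to 2742 FPKM. Taken singly in CPM, the smooth muscle markers overlapped with control at both concentrations, except CALD1 at 250 nM. CALD1 read 1662, 1805 and 1693 CPM in control and 1813, 1850 and 1843 CPM at 250 nM (edgeR adjusted p 0.730). The part of either marker set in the carrier results was not tested.

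SLC30A1 (ZnT1) lowers cytosolic zinc by exporting it across the plasma membrane. Its level, in CPM scaled between libraries by TMM factors as in all comparisons that follow, was 6.58, 6.19 and 6.59 in control, 9.23, 10.3 and 8.96 at 50 nM and 7.59, 6.65 and 7.88 at 250 nM. All 50 nM libraries stood above all others, with the 250 nM libraries between them and the controls. The log2 fold change at 50 nM was 0.56 ± 0.11 (SE), or 1.47-fold, with an edgeR adjusted p of 0.0102. SLC30A1 rested on 96 to 164 fragments per library, and without 50 nM library 2 its edgeR adjusted p was 0.0549. The other 5 SLC30 members, which move zinc across the membranes of organelles, had log2 fold changes of -0.02 to 0.09 and none passed the test. Of the 8 SLC39 members, which bring zinc into the cytosol, none passed either.

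SLC23A2 read 50.7, 54.3 and 55.5 CPM in control, 65.7, 70.2 and 61.4 CPM at 50 nM, and 62.3, 63.0 and 63.2 CPM at 250 nM. Every estradiol library exceeded every control library, and the 2 estradiol groups overlapped. At 50 nM the log2 fold change was 0.30 ± 0.06 (SE), or 1.23-fold, with an edgeR adjusted p of 0.0179. The adjusted p was 0.0612 without control library 1, 0.0649 without 50 nM library 1 and 0.0873 without 50 nM library 2. It was 0.0626 when the 250 nM libraries were left out of the fit, and 0.0752 to 0.104 with limma on the FPKM values.

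SLC17A9 loads ATP into secretory vesicles. It read 11.1, 10.8 and 11.9 CPM in control, 15.1, 15.9 and 14.8 CPM at 50 nM, and 14.6, 14.6 and 11.7 CPM at 250 nM. The 50 nM libraries did not overlap with any other, whereas 1 of the 250 nM libraries lay within the control range. At 50 nM the log2 fold change was 0.44 ± 0.10 (SE), or 1.36-fold, with an edgeR adjusted p of 0.0210. The call was lost without control library 1, 2 or 3 (adjusted p 0.0540, 0.0695 and 0.0519) and without 50 nM library 1 or 2 (0.0649 and 0.0861). It was also lost in limma on the FPKM values with no filter (0.0867).

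SLC12A4 was the most abundant of the 5, at 208.1, 190.9 and 193.4 CPM in control, 220.8, 246.5 and 229.7 CPM at 50 nM and 221.4, 216.5 and 212.2 CPM at 250 nM. Every control library was lower than every estradiol library. At 50 nM the log2 fold change was 0.23 ± 0.06 (SE), or 1.18-fold, with an edgeR adjusted p of 0.0362. Without control library 2 or 3 the adjusted p was 0.101 and 0.155, and without 50 nM library 1 or 2 it was 0.0527 and 0.152. Leaving out 250 nM library 1, 2 or 3 gave an edgeR adjusted p of 0.0590, 0.0644 and 0.0616, and leaving out all 3 gave 0.104. Such fits keep every control and 50 nM library but change the shared estimate of the spread, the TMM factors and the set of genes tested. On the FPKM values it was 0.115 to 0.130 with limma.

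SLC26A6, an exchanger of chloride for bicarbonate, oxalate and other anions, read 19.4, 16.6 and 17.4 CPM in control, 21.0, 22.6 and 23.3 CPM at 50 nM and 20.6, 19.9 and 18.4 CPM at 250 nM. The 50 nM libraries stood above the rest, and the 250 nM libraries overlapped with control. At 50 nM the log2 fold change was 0.32 ± 0.08 (SE), or 1.25-fold, with an edgeR adjusted p of 0.0458, close to the threshold. The call was lost without control library 2 or 3 (0.138 and 0.166), without any 50 nM library (0.0649, 0.140 and 0.0914 for libraries 1 to 3) and without any 250 nM library (0.0624, 0.0707 and 0.0607). It was also lost with upper-quartile factors (0.0506), with limma-voom (0.0526), without the whole 250 nM group (0.0978), and on the FPKM values (0.108 to 0.161).

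**Figure D2:**
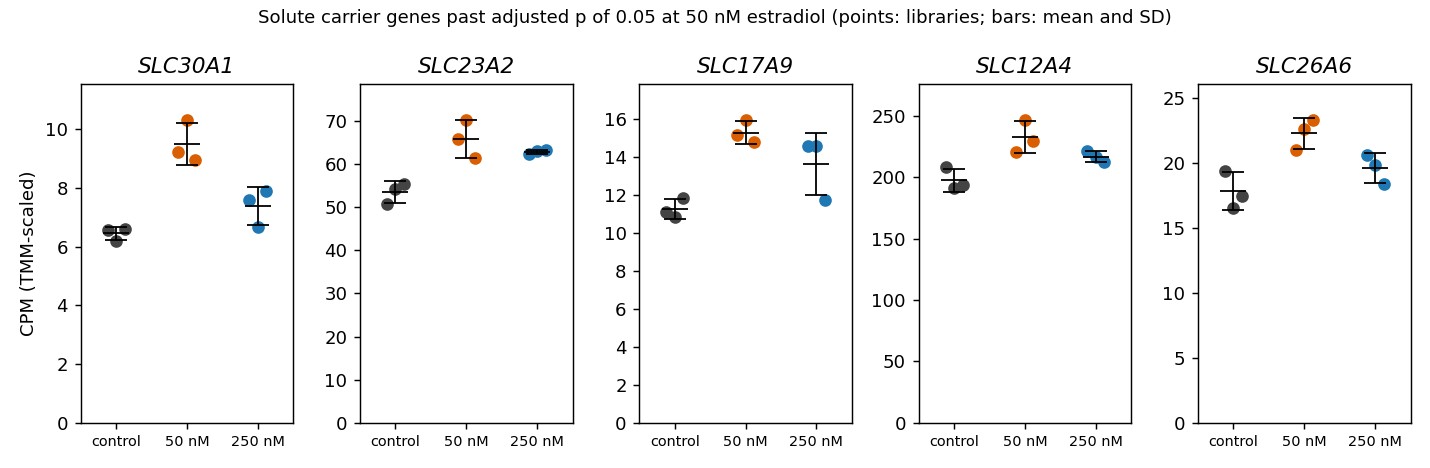
CPM of the 5 solute carrier genes that passed the test at 50 nM, by group. Points are libraries and bars the mean and SD of 3; the 50 nM libraries lie above the control libraries in each panel, and the 250 nM libraries of SLC17A9 and SLC26A6 reach into the control range.

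Over all members the changes at 50 nM were small and balanced. The median log2 fold change was 0.00 for the members and -0.00 for all genes tested, with 70 members above and 67 below 0. The members' median absolute log2 fold change was 0.0852, against 0.101 for all genes, and the range ran from -0.43 to 0.56. In 28 members (20.4%) the 50 nM and control libraries did not overlap, 16 higher and 12 lower; the share among all genes tested was 19.0% (8.88% higher, 10.1% lower). At an unadjusted p under 0.05 in edgeR there were 21 members (15.3%), against 15.6% of all genes.

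Several members with larger fitted changes missed the threshold. SLC10A6, the carrier of sulfated steroids, had the lowest control FPKM of all members. Its CPM was 8.42, 5.26 and 7.55 in control, 11.5, 10.3 and 8.87 at 50 nM and 8.57, 8.73 and 9.40 at 250 nM, so that every estradiol library was above every control library by a margin smaller than the spread of the controls. Its log2 fold change at 50 nM was 0.53 ± 0.15 (SE), with an edgeR adjusted p of 0.0736. It passed with DESeq2 (adjusted p 0.0296), in edgeR with no filter (0.0351), and without control library 1 (0.0382) or 50 nM library 3 (0.0386). SLC19A2, a thiamine importer, had 0.43 ± 0.14 (SE, edgeR adjusted p 0.123). SLC35B3, which brings the sulfate donor PAPS into the Golgi, had 0.36 ± 0.11 (SE, edgeR adjusted p 0.0925), and passed with DESeq2 (adjusted p 0.04997) and without 50 nM library 2 (0.0431). On the negative side, SLC3A1 read 6.09, 5.42 and 6.76 CPM in control against 4.58, 4.25 and 4.71 CPM at 50 nM, without overlap. Its log2 fold change was -0.43 ± 0.12 (SE, edgeR adjusted p 0.0768). SLC36A1, a lysosomal amino acid exporter coupled to protons, read 16.1, 15.9 and 14.1 CPM in control, 11.7, 12.3 and 12.8 CPM at 50 nM and 14.2, 16.9 and 13.4 CPM at 250 nM. Its log2 fold change at 50 nM was -0.32 ± 0.10 (SE, edgeR adjusted p 0.0980), and the 250 nM libraries overlapped with control. The other members among the 5 most negative, SLC1A4, SLC45A4 and SLC41A3, each had a log2 fold change of -0.28.

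Some abundant carriers missed the threshold in the main test and passed it under some of the alternatives. SLC11A2 read 173.8, 173.7 and 164.9 CPM in control, 206.2, 208.4 and 181.6 CPM at 50 nM and 178.8, 182.3 and 186.0 CPM at 250 nM. Control and 50 nM did not overlap, and the log2 fold change was 0.22 ± 0.06 (SE, edgeR adjusted p 0.0609). It passed with DESeq2 (adjusted p 0.00777), with upper-quartile factors (0.0485), with a filter of 5 CPM in 3 libraries (0.0467), with the counts divided by 4 (0.0471) and without 50 nM library 3 (0.00832). SLC2A1 read 276.4, 238.8 and 245.6 CPM in control and 305.2, 320.6 and 276.4 CPM at 50 nM, where the lowest treated library and the highest control library were level. Its log2 fold change was 0.25 ± 0.08 (SE, edgeR adjusted p 0.1005), and it passed with DESeq2 (adjusted p 0.0310) and without 50 nM library 3 (0.0368). SLC38A2, the highest amino acid carrier, had -0.11 ± 0.05 (SE, edgeR adjusted p 0.307).

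By class, the called members were 2 of 22 carriers of inorganic ions, 1 of 21 metal carriers, 1 of 7 carriers of organic ions or vesicular transmitters and 1 of 4 vitamin carriers. None was called among 24 SLC25 carriers, 25 amino acid carriers, 13 carriers of nucleosides and nucleotide sugars, 9 of sugars, 7 of lipids, 3 of monocarboxylates and the 2 proteins that are not transporters. Among all genes tested 3.25% were called (1.55% higher), and with so few calls in a class these counts do not set one class apart. The SLC25 family had 5 positive and 19 negative log2 fold changes at 50 nM, with a median of -0.05 and a range of -0.25 to 0.11. Carriers of inorganic ions had 15 positive and 7 negative values with a median of 0.08, among them all 5 SLC4 members, which move bicarbonate or borate, at 0.00 to 0.24. Sugar carriers had a median of 0.11 (6 positive, 3 negative), vitamin carriers 0.18 (3 positive, 1 negative), and amino acid carriers -0.00 (11 positive, 14 negative). These medians stand beside -0.00 for all genes tested, and no test was made of a class.

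**Figure D3:**
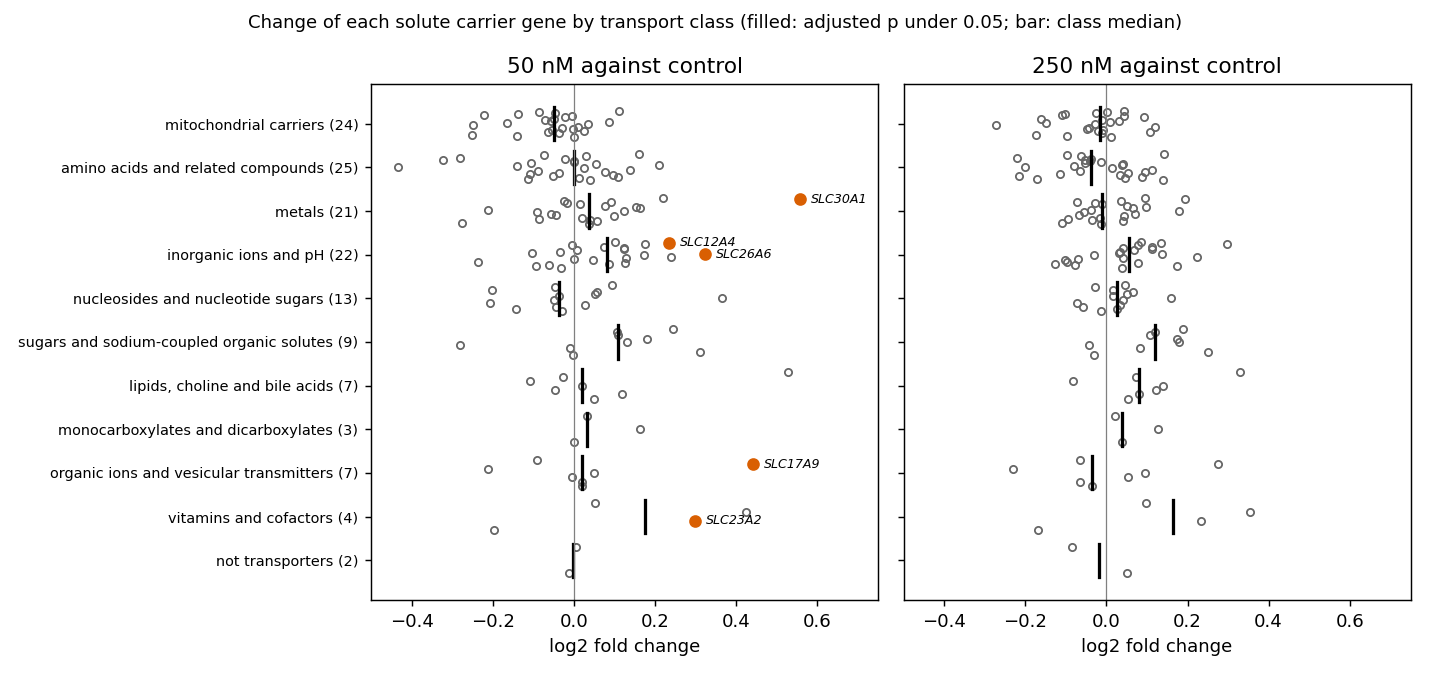
Log2 fold change of each solute carrier member against control at 50 nM (left) and 250 nM (right), by transport class with the number of members in brackets. Filled points passed the edgeR test and vertical bars are class medians; the 5 filled points, all to the right of 0, are in the 50 nM panel, and the 250 nM values run from -0.27 to 0.35.

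Summed levels of the classes were compared as percent of the control mean of the summed CPM, as a description. Vitamin carriers summed to 118% ± 3.54 at 50 nM and 114% ± 0.966 at 250 nM, against a control SD of 4.05, and neither estradiol group overlapped with control. SLC23A2 held most of this sum, which leaves out the multivitamin carrier SLC5A6. The log2 fold change of SLC5A6 was -0.00 at 50 nM and -0.03 at 250 nM. Sugar carriers summed to 114% ± 4.77 at 50 nM, above all controls, and to 112% ± 7.65 at 250 nM, where they overlapped. Most of that sum was SLC2A1. Carriers of inorganic ions summed to 109% ± 2.68 at 50 nM, above all controls, and to 105% ± 1.78 at 250 nM, with overlap. Amino acid carriers were below all controls at 50 nM, at 96.8% ± 0.719, and at 97.3% ± 0.848 with overlap at 250 nM. Lipid carriers summed to 104% ± 3.22 at 50 nM, with overlap, and to 106% ± 1.99 at 250 nM, above all controls. In FPKM the lipid carriers overlapped with control at both concentrations. Summed in FPKM, which was scaled by the authors in another way, the 50 nM groups of sugar carriers and of inorganic ion carriers overlapped with control, while the vitamin carriers stayed above and the amino acid carriers below. On log2(FPKM + 1) the median log2 fold change of all genes at 50 nM was itself -0.0493, against -0.00196 in the main fit. Levels in FPKM were thus shifted down at 50 nM, and a sum that stays below control there adds little. The SLC25 family summed to 98.9% ± 5.53 and 98.7% ± 3.65 of control, within the control SD of 6.83. All members together summed to 102% ± 0.536 at 50 nM and 101% ± 0.232 at 250 nM, within the control SD of 3.04.

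**Figure D4:**
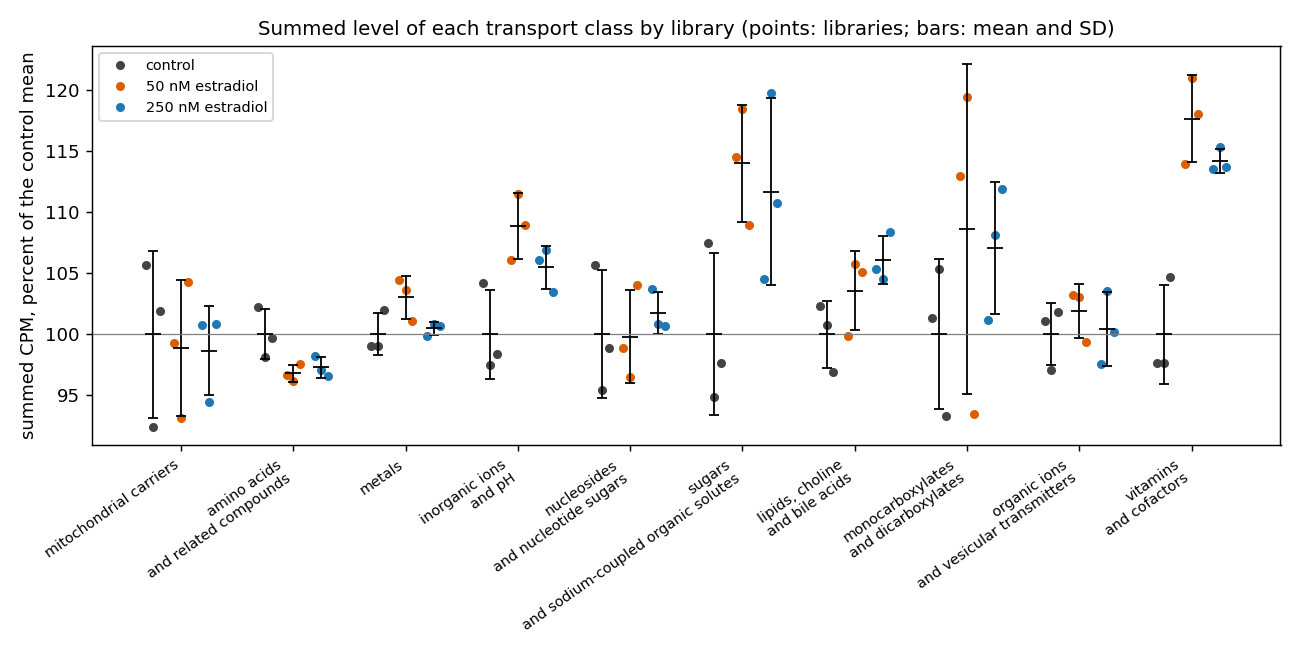
Summed CPM of each transport class in every library, as percent of the control mean, with points for libraries and bars for the mean and SD of 3 (the axis does not start at 0). Vitamin carriers, counted without SLC5A6, stand highest, at 118% of control at 50 nM and 114% at 250 nM, and SLC25 carriers overlap in all groups.

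Of the subfamilies, SLC12 summed to 424.3, 398.3 and 405.1 CPM in control, 439.4, 474.9 and 452.4 CPM at 50 nM and 448.1, 448.3 and 432.0 CPM at 250 nM. Both estradiol groups lay above control in CPM, with SLC12A4 as the one called member, but overlapped with it in FPKM. SLC2 summed to 307.8, 271.5 and 279.4 CPM in control and 339.3, 354.3 and 314.1 CPM at 50 nM, without overlap, and to 302.0, 353.8 and 318.0 CPM at 250 nM, with overlap. SLC38 was lower at 50 nM, with 1164, 1105 and 1132 CPM in control and 1059, 1099 and 1069 CPM at 50 nM, again without overlap. In FPKM it was below all controls too, which adds little because FPKM levels were shifted down at 50 nM. The SLC38 sum is mostly SLC38A2, which did not pass the test. In summed CPM at 50 nM, SLC10, SLC11, SLC17, SLC23, SLC31 and SLC37 also lay above all controls, and SLC36 below. All remaining subfamilies overlapped with control in summed CPM at 50 nM. Summed in FPKM at 50 nM, SLC2, SLC11, SLC17, SLC23 and SLC37 were also above all controls, while SLC10 and SLC31 overlapped with control. At 250 nM, SLC10, SLC11, SLC23, SLC27 and SLC37 lay above all controls in summed CPM, as SLC12 did, and SLC46 below. Of single genes tested, 19.0% did not overlap with control at 50 nM and 15.5% at 250 nM, and no test was made of a subfamily.

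At 250 nM, none of the 137 members passed the edgeR test against control, where 0.308% of all genes tested did (0.203% higher, 0.105% lower). At an unadjusted p under 0.05 there were 10 members (7.30%), against 8.67% of all genes, and DESeq2 called 1 member, SLC23A2, at an adjusted p of 0.0496. The 250 nM and control libraries did not overlap in 20 members (14.6%), 14 higher and 6 lower, while 15.5% of all genes showed such a separation (7.75% higher, 7.76% lower). The median log2 fold change of the members was 0.03 (78 above and 59 below 0), beside -0.00 for all genes, and the members' median absolute value was 0.0694 beside 0.0831. By class, the median was 0.16 for vitamin carriers, 0.12 for sugar carriers, 0.08 for lipid carriers, 0.05 for inorganic ion carriers, -0.02 for SLC25 carriers and -0.04 for amino acid carriers.

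The largest positive log2 fold changes at 250 nM were 0.35 for SLC19A2, 0.33 for SLC10A6, 0.30 for the neuronal chloride exporter SLC12A5, 0.27 for SLC17A9 and 0.25 for SLC5A2, a sodium-glucose cotransporter. The most negative were -0.27 for SLC25A30, -0.23 for SLC18B1, a vesicular polyamine carrier, -0.22 for the neutral amino acid exchanger SLC1A4, -0.21 for SLC7A11 and -0.20 for SLC3A1. SLC7A11 read 66.8, 67.2 and 72.3 CPM in control and 68.2, 56.6 and 53.1 CPM at 250 nM, and the groups overlapped (edgeR adjusted p 0.520). SLC25A30 overlapped as well (edgeR adjusted p 0.537). The 5 genes called at 50 nM had log2 fold changes at 250 nM of 0.19 ± 0.11 (SE) for SLC30A1, 0.23 ± 0.06 for SLC23A2, 0.27 ± 0.10 for SLC17A9, 0.13 ± 0.06 for SLC12A4 and 0.14 ± 0.08 for SLC26A6. Their edgeR adjusted p-values were 0.688, 0.193, 0.377, 0.520 and 0.716. The same control libraries serve both comparisons.

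Whether the response differed between the concentrations was tested directly, as 250 nM against 50 nM. None of the 137 members passed the edgeR test, where 0.325% of all genes did (0.187% higher, 0.138% lower). DESeq2 also called none, and 8 members (5.84%) had an unadjusted p under 0.05 in edgeR, against 5.68% of all genes. In 15 members (10.9%) the libraries of the 2 concentrations did not overlap, 11 higher and 4 lower at 250 nM, and the share among all genes was 11.5% (5.94% higher, 5.57% lower). SLC30A1 had the most negative log2 difference, -0.37 (95% interval -0.60 to -0.13, edgeR adjusted p 0.350), and SLC36A1 the most positive, 0.27 (0.06 to 0.48, edgeR adjusted p 0.616). For the other called genes the log2 difference was -0.07 (-0.20 to 0.07) for SLC23A2, -0.17 (-0.37 to 0.04) for SLC17A9, -0.10 (-0.22 to 0.02) for SLC12A4 and -0.19 (-0.36 to -0.01) for SLC26A6. These intervals are not adjusted for the number of genes. The data therefore do not separate the concentrations for these genes, nor do they show that the responses are alike.

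In the test of any difference among the 3 groups, 1.86% of all genes passed and so did 2 members, SLC30A1 (edgeR adjusted p 0.0292) and SLC23A2 (edgeR adjusted p 0.0461). Neither passed when control library 1, 2 or 3 or 50 nM library 1 or 2 was left out, and SLC30A1 alone of the 2 passed without any one of the 250 nM libraries. Without 50 nM library 3 the count was 3.

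Genes that work alongside the solute carriers were read from the same fit. Of 24 tested partners and regulators of solute carriers, 1 rose and 1 fell at 50 nM, where 3.25% of all genes tested were called, so counts this small in short lists set no list apart. ARRDC3, an arrestin-like adaptor of ubiquitin ligases, rose from 12.2 ± 1.32 to 19.9 ± 2.06 CPM (log2 fold change 0.71 ± 0.10 SE, edgeR adjusted p 0.000921). SGK1, a kinase known to raise the surface level of several carriers, fell from 128 ± 8.84 to 106 ± 2.64 CPM (log2 fold change -0.27 ± 0.06 SE, edgeR adjusted p 0.0219). Of 29 genes of the amino acid response, 1 rose at 50 nM: DDIT4, an inhibitor of mTORC1, went from 14.4 ± 1.49 to 20.9 ± 2.66 CPM (log2 fold change 0.54 ± 0.11 SE, edgeR adjusted p 0.0160). None of 22 ABC transporters, 22 P-type ATPases, 13 subunits of the vacuolar proton pump and 28 further carriers named outside the SLC scheme passed at 50 nM. The median log2 fold changes of the 6 lists at 50 nM lay between -0.06 and 0.03. No gene of the 6 lists passed at 250 nM against control, where 0.308% of all genes did, or against 50 nM, where 0.325% did.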

How the data were processed

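RNA of 9 HA-VSMC libraries in 3 groups of 3 was sequenced, and groups were taken from the sample titles. For each gene the authors deposited an estimated count and an FPKM value. The submitters' processing notes name Trim Galore, TopHat2 2.1.1, Cufflinks and Cuffdiff. The genome build, annotation and use of strand were not given in the sources used here. Without strand, reads of SLC7A6OS and of its neighbour on the opposite strand cannot be told apart. The deposited estimated counts are whole numbers with about 4 units per fragment, taken as they are. Of the 137 members, 136 matched a RefSeq gene of assembly mOryCun1.1, used for names only.

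Genes were filtered with filterByExpr (minimum count 10; 12324 kept) and fitted over the 9 libraries with edgeR 4.0.16 (R 4.3.3), using TMM factors, the quasi-likelihood test and Benjamini-Hochberg adjustment over all genes tested, at a threshold of 0.05. The fitted coefficient of variation between libraries was 8.92%. Alternatives used DESeq2 1.42.0, limma 3.58.1 and log2(FPKM + 1) or log2(FPKM + 0.1). Libraries of a group differed by more than sampling noise (chi-square per degree of freedom 3.00 to 11.1), so none was merged. The groups share replicate numbers, but among 9 same-numbered pairs 0 had deviations correlated above 0.1, so the main fit has no block.

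Members and gene lists were chosen with earlier results of these data known. Named genes are those past the threshold, the 20 highest in control, the highest of each subfamily of at least 3 members, the 5 largest changes each way against control and those next to the minimum; the rest were chosen after their values were seen. Some genes of this rule are not reported here.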

Additional observations from a re-analysis of the deposited data

How the results depend on the processing

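The alternatives reversed no direction among the members followed one by one, those with an unadjusted p under 0.05 in the main edgeR test. These were picked from the same libraries, so their kept direction is no separate evidence. For 50 nM against control, where 5 members were called, DESeq2 called 9, a fit without the 250 nM group 2, limma on log2(FPKM + 1) and on log2(FPKM + 0.1) 2 each, and log2(FPKM + 1) with no filter 1. With the replicate numbers entered as a block, 8 were called, although the numbers do not pair the libraries (same-numbered deviations correlated at -0.0319 to 0.0359, other pairs at -0.0795 to 0.0684, and 3 of 9 libraries correlated best with their own number); the 3 added were SLC10A6, SLC11A2 and SLC35B3. Leaving out 1 library at a time gave 1 to 7 calls. For 250 nM against control, DESeq2 called 1 where the main test called 0. In the test of any difference, with 2 members called, DESeq2 called 6, log2(FPKM + 1) and log2(FPKM + 0.1) 1 each, log2(FPKM + 1) with no filter 0, and leaving out 1 library gave 0 to 3. A minimum of 2 or 10 CPM would have made 151 or 113 members. Of single-gene values under the alternatives, 762 kept their side of the threshold, 39 lost it and 18 gained it. Only a called member could lose it, so all 39 losses fell on the 5 called at 50 nM. Uncalled members that stayed uncalled are among the 762. Over all genes at 50 nM, DESeq2 called 661, where the main test called 401. SLC25A29, next to the minimum, rested on 56 to 97 fragments per library. Causes of these shifts were not tested.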

Other observations

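Of the 163 SLC rows under the minimum of 5 CPM, 55 were at 0 in every library and 56 entered the tests. Among these 56, 1 passed the edgeR test at 50 nM, SLC45A3, a member of the putative sugar carrier family at 3.91 CPM, named after its values were seen. In this comparison 3.25% of all genes tested were called, so 1 of 56 is not above the background. It fell by 0.94 on the log2 scale (edgeR adjusted p 0.00567). At 250 nM its log2 fold change was -0.45 (edgeR adjusted p 0.404). The SLC45 members above the minimum, SLC45A1 and SLC45A4, had log2 fold changes of 0.13 and -0.28 at 50 nM, neither past the threshold.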
